A study of Mus musculus with 8 samples.

Results

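The kinesin superfamily is the set of genes whose products walk along, cross-link or shorten microtubules, and it was examined here in cultured mouse satellite cells, from which skeletal muscle regenerates. Members were the rows of the count table whose symbol is Kif followed by a number and at most 1 letter, together with Kifc1, Kifc2, Kifc3 and the accessory subunit Kifap3. This gave 41 of the 39017 genes in the table: 13 motors of mitosis, 18 transport motors and 10 kinesins with ciliary, signalling or mixed roles. RNA sequencing covered 2 groups of 4 libraries each. In the first, sal003, an inhibitor of the removal of phosphate from eIF2α (a factor of translation initiation), was present at 10 µM over 4 days of culture; the second received the vehicle DMSO. Both groups were satellite cells from the diaphragm and abdominal muscle of adult Pax3GFP/+ mice, which have GFP in place at 1 Pax3 allele, plated at 7500 cells per 35 mm dish. The labels do not say whether replicates came from separate animals or dishes, so a p-value here reflects library-to-library spread, which may be technical.

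Kinesins use ATP to move cargo along microtubules or to remodel the microtubules themselves. Mitotic motors push spindle poles apart, align chromosomes and build the midzone at which the cell divides, and many of their genes are transcribed mainly in G2 and mitosis. Transport motors carry vesicles, mitochondria and protein complexes; in muscle, the conventional kinesin heavy chain Kif5b is known for positioning nuclei and mitochondria in myotubes. Other members work in cilia or as scaffolds in signalling.

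Library totals ranged from 37248830 to 39378523 counts in sal003 and from 32753929 to 40234107 in DMSO. DMSO replicate 2 stood apart: its highest Spearman correlation with another DMSO library was 0.949, where the other 7 libraries reached 0.978 to 0.982 within their group. At a total of 35235354 counts, it also had counts for only 14437 genes, against 16561 to 18076 in the other 7. Its values of 0 for scarce genes are to be read with that limit. Myoblast identity was checked on 8 markers, all of which had counts and passed the filter, with summed levels of 2490.2 to 2743 CPM in sal003 and 4260 to 4911 CPM in DMSO (CPM, counts scaled to a library of 1000000 after TMM normalization). Of the 8, 1 was higher and 3 lower in sal003 (edgeR adjusted p below 0.05), where 10.6% of all tested genes were higher and 12.2% lower. The count of rises is thus near the background. The median log2 fold change was 0.16. The sum was carried mainly by the intermediate filament gene Des, with 1171 ± 40.7 CPM in sal003 and 2941 ± 224 CPM in DMSO (SD, n = 4), and Cdh15 and Itga7 were lower too. Pax7, the defining marker of satellite cells, was higher, with 97.2 ± 2.54 CPM in sal003 and 72.1 ± 6.74 CPM in DMSO and an estimate of 0.43 ± 0.10 (SE; adjusted p = 0.00539, edgeR). Myod1 had 892 ± 52.3 CPM in sal003 and 896 ± 85.8 CPM in DMSO (adjusted p = 0.975), and Vcam1, Myf5 and Pax3 had estimates above 0 that did not pass. Defining markers of several other cell types were at 0 in every library, among them Rbfox3 and Snap25 of neurons, Dcn and Lum of fibro-adipogenic cells, Tie1 of endothelium and Ptprc of leukocytes. The summed levels of 5 multiciliated cell markers were 0.294 to 3.27 CPM in sal003 and 0.0593 to 2.21 CPM in DMSO. For 5 fibro-adipogenic markers they were 1.04 to 2.96 CPM in sal003 and 0.3195 to 5.55 CPM in DMSO. Endothelial markers (4) summed to 2.304 to 5.24 CPM in sal003 and 0.890 to 4.17 CPM in DMSO, and leukocyte markers (3) to 2.16 to 4.56 CPM in sal003 and 1.21 to 3.87 CPM in DMSO. Smooth muscle and pericyte markers (4) summed to 138 to 168 CPM in sal003 and 173 to 246 CPM in DMSO. Of the 2 that could be tested, 1 was lower, beside 12.2% of all tested genes. Nearly all of that sum was Cspg4, the member that was lower, with means of 149 CPM in sal003 and 197 CPM in DMSO. Rgs5, Kcnj8 and Myh11 averaged at most 0.804 CPM in either group. The cycling-cell markers Mki67, Top2a, Ccnb1 and Pcna were all higher in sal003, where their sum ranged from 2914 to 3097 CPM, against 1120.0 to 1666 CPM in DMSO. The 4 markers of differentiating muscle cells that had a row (Myog, Ckm, Myh3 and Ttn) were all lower, with sums of 14141 to 15977 CPM in sal003 and 44562 to 66754 CPM in DMSO. These shifts accompany every kinesin result below, and their part in those results was not tested. In bulk RNA of this kind, a change in the number of cells of one state and a change of RNA per cell cannot be told apart.

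In the comparison of sal003 with DMSO, the motors of mitosis were higher nearly throughout, whereas the transport motors showed no shared direction and included the largest fall of the family, that of Kif1a. Of the 41 kinesins, 38 passed the filter on low counts, and 34 of these were at or above the filter level in all 8 libraries. Kif2b had no counts in any library, and Kif6 and Kif12 had counts in only 1 DMSO library each. By the quasi-likelihood test of edgeR with Benjamini-Hochberg adjustment over all tested genes, at adjusted p below 0.05, 14 kinesins were higher and 6 lower in sal003. Across the 15816 genes tested, 10.6% were higher and 12.2% lower by the same rule. All 4 sal003 libraries lay above all 4 DMSO libraries for 11 kinesins and below them for 6, where 13.1% and 13.7% of all tested genes did so. The estimates for all tested kinesins are drawn in the plot of log2 fold changes.

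**Figure D1:**
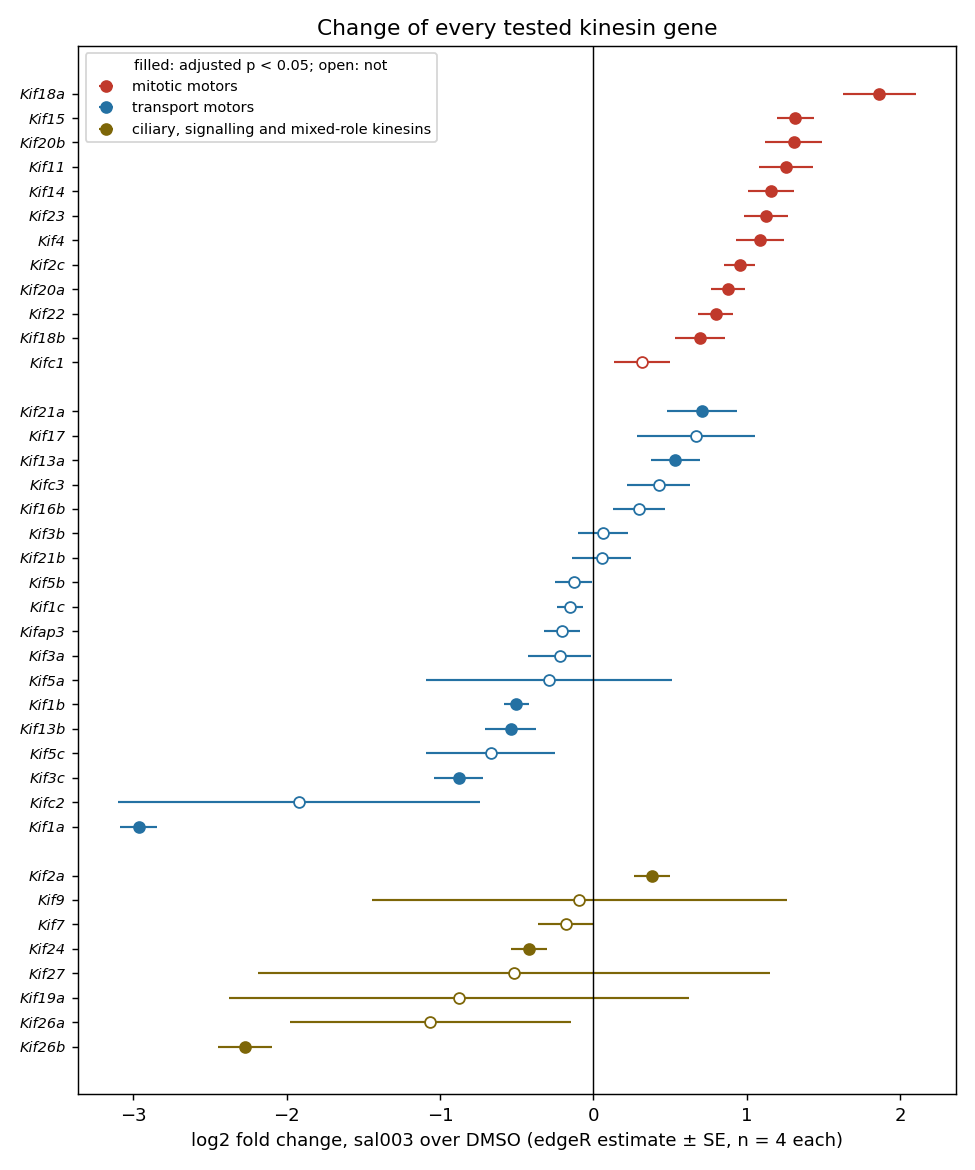
Log2 fold change of sal003 over DMSO for the 38 tested kinesins (edgeR estimate with SE, n = 4 libraries each), grouped by role; filled symbols passed adjusted p below 0.05. All 12 mitotic motors lie right of 0, up to 1.86 for Kif18a, while transport motors lie on both sides, down to -2.96 for Kif1a.

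Among the mitotic motors, 11 of the 12 tested rose and 0 fell, with a median log2 fold change of 1.11 (-0.00 over all tested genes). At an unadjusted p below 0.05 edgeR likewise put 0 lower, as did DESeq2 and limma-voom at the adjusted threshold. All 11 kept the call in each of the 8 fits that left out 1 library, DMSO replicate 2 included. For 10 of them the groups did not overlap. The motors are taken here by their work in the spindle.

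A pair of plus-end directed motors drives spindle poles apart. Kif11 (Eg5), the tetrameric motor that slides antiparallel microtubules, had 265, 243, 247 and 230.1 CPM in the 4 sal003 libraries, against 89.8, 68.2, 114 and 141 CPM in the 4 DMSO libraries (ENSMUSG00000012443, chromosome 19, 37376403 to 37421859, plus strand, mm10). Every sal003 library was above every DMSO library, and the log2 fold change was 1.25 ± 0.18 (SE; adjusted p = 0.000199, edgeR). Without DMSO replicate 2, the lowest of its group, it was 1.11 (adjusted p = 1.04e-07). Kif15, which can take over from Kif11 in holding the poles apart, had 130.1, 136, 151 and 158 CPM in the 4 sal003 libraries, against 46.4, 57.0, 66.8 and 60.7 CPM in the 4 DMSO libraries (ENSMUSG00000036768, chromosome 9, 122951046 to 123018733, plus strand). The groups were well separated, with a log2 fold change of 1.32 ± 0.12 (SE; adjusted p = 7.94e-07, edgeR). Per kilobase of exon, Kif11 was the most abundant mitotic motor in sal003 and the third in DMSO, at 33.0 CPM per kilobase in sal003 and 13.8 CPM per kilobase in DMSO, and Kif15 ranked 10th of 13 in both.

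Motors that shorten microtubules or damp their growth also rose, by unequal amounts. Kif18a, which damps chromosome oscillations at the metaphase plate, had 26.5, 28.1, 17.6 and 24.8 CPM in the 4 sal003 libraries, against 6.90, 6.58, 4.76 and 8.39 CPM in the 4 DMSO libraries (ENSMUSG00000027115, chromosome 2, 109280738 to 109341747, plus strand). It was the least abundant of the tested mitotic motors per kilobase and had the largest estimate, 1.86 ± 0.24 (SE; adjusted p = 2.52e-05, edgeR), or 3.64-fold higher in sal003. Its relative Kif18b, which acts on astral microtubules, had 64.2, 85.3, 76.5 and 79.7 CPM in the 4 sal003 libraries, against 65.4, 46.2, 37.9 and 39.3 CPM in the 4 DMSO libraries. Here DMSO replicate 1 lay above sal003 replicate 1, so the groups overlapped, and the log2 fold change was 0.70 ± 0.16 (SE; adjusted p = 0.00533, edgeR). Whether the changes of the pair differ from each other was not tested. Kif2c (MCAK), the depolymerase that corrects faulty kinetochore attachments, had 111, 121, 125 and 116 CPM in the 4 sal003 libraries, against 68.3, 55.8, 56.5 and 64.4 CPM in the 4 DMSO libraries. The spread within each group was small, and its log2 fold change was 0.95 ± 0.10 (SE; adjusted p = 5.45e-06, edgeR).

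Both chromokinesins, which bind chromosome arms, were higher. The chromokinesin Kif4 also sets the length of midzone microtubules together with Prc1, and it had 114, 123, 121 and 101 CPM in the 4 sal003 libraries, against 54.4, 36.1, 58.8 and 67.1 CPM in the 4 DMSO libraries. DMSO replicate 2 was again the lowest library, and the log2 fold change was 1.08 ± 0.16 (SE; adjusted p = 8.73e-05, edgeR). Kif22 (Kid), which pushes chromosome arms away from the poles, had 88.2, 96.4, 95.1 and 95.5 CPM in the 4 sal003 libraries, against 51.3, 58.4, 45.9 and 60.2 CPM in the 4 DMSO libraries. The groups did not overlap, and its estimate was 0.80 ± 0.11 (SE; adjusted p = 7.36e-05, edgeR).

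The motors of the midzone and of cytokinesis rose as well. Kif23 (MKLP1), the motor subunit of centralspindlin, had 124, 132, 137 and 137 CPM in the 4 sal003 libraries, against 63.3, 41.8, 62.2 and 75.6 CPM in the 4 DMSO libraries. It stood above the DMSO range in every sal003 library, with a log2 fold change of 1.13 ± 0.14 (SE; adjusted p = 2.69e-05, edgeR). Kif20a (MKLP2), which carries the chromosomal passenger complex to the midzone, had 124, 131, 134 and 137 CPM in the 4 sal003 libraries, against 73.1, 58.1, 78.1 and 76.9 CPM in the 4 DMSO libraries. The 4 sal003 libraries lay close together, and the estimate was 0.88 ± 0.11 (SE; adjusted p = 1.95e-05, edgeR). Kif20b (MPP1), a motor needed to complete cytokinesis, had 146, 145, 132 and 108 CPM in the 4 sal003 libraries, against 51.4, 37.2, 48.9 and 77.4 CPM in the 4 DMSO libraries. The groups did not overlap, and the log2 fold change was 1.30 ± 0.19 (SE; adjusted p = 0.000184, edgeR). Kif14, which recruits citron kinase to the midbody, had 83.4, 76.1, 72.7 and 105 CPM in the 4 sal003 libraries, against 30.9, 34.7, 45.5 and 39.9 CPM in the 4 DMSO libraries, with no overlap and a log2 fold change of 1.16 ± 0.15 (SE; adjusted p = 3.08e-05, edgeR).

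The exception was Kifc1 (HSET), the minus-end directed motor that focuses spindle poles. It had 65.7, 57.6, 62.3 and 48.9 CPM in the 4 sal003 libraries, against 61.9, 30.2, 45.2 and 51.1 CPM in the 4 DMSO libraries. The groups overlapped, and its estimate of 0.32 ± 0.18 on the log2 scale missed the threshold (edgeR adjusted p = 0.263). In the 8 fits without 1 library it ran from 0.17 to 0.48 and passed in none. This gene is uncertain, because 39.7% of the 50-base stretches of its annotated transcripts also occur in transcripts of other genes, chiefly Kifc5b, which is not a member. Kifc5b had a log2 fold change of 0.46 ± 0.16 (SE; edgeR adjusted p = 0.0564). For the other members no more than 5.03% of such stretches were shared. Exons of Kif18a, Kif20a, Kif22 and Kif4 overlap exons of a gene on the opposite strand, as do those of Kif2a, Kif3c and Kif26b among the other called kinesins and of Kif5b and Kif7. Whether reads were counted by strand is not stated, and reads of such neighbours could then be shared.

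**Figure D2:**
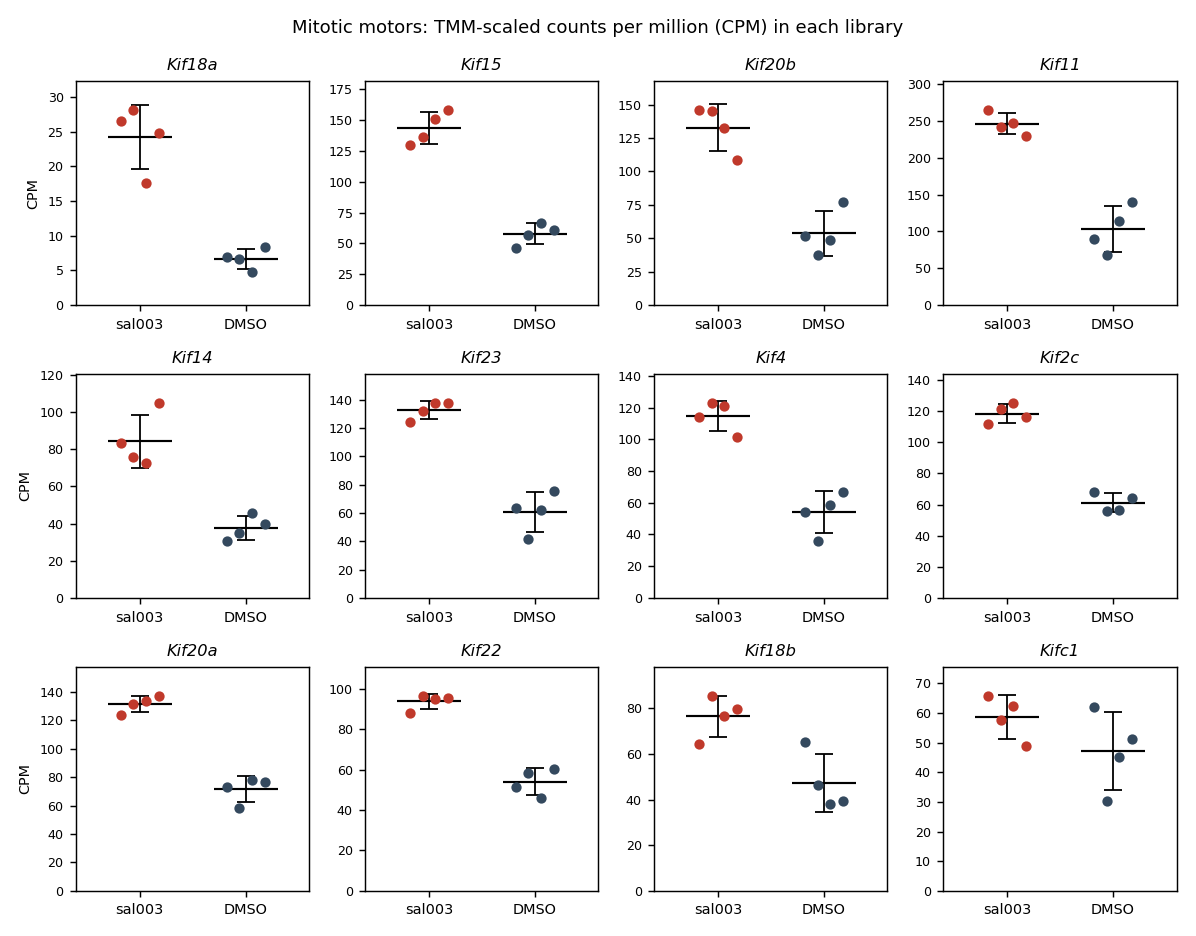
Level of each tested mitotic motor in CPM (vertical axis, own scale per gene) in the 4 sal003 and the 4 DMSO libraries, replicates 1 to 4 from left to right, with mean and SD as bars. The groups are apart for 10 genes and overlap for Kif18b and Kifc1.

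The promoters of the kinesins were compared for the letters of 2 elements known from cell-cycle genes. These were the cell cycle genes homology region, searched as TTTGAA or TTCGAA, and the CCAAT box, searched as CCAAT, each on both strands. Windows ran from 250 bases before to 50 after the annotated start, and 33 of the 41 kinesins matched the RefSeq table of the GRCm38.p6 build. Counts are of windows, and some genes have 2: the 14 transport windows come from 12 genes and the 11 others from 9. Both windows of Kif1b hold the same CCAAT matches, which are thus counted 2 times. No match of one element overlapped one of the other. The homology region letters were present in 10 of 12 promoters of mitotic motors (83.3%), 1 of 14 promoters of transport motors (7.14%) and 3 of 11 of the remaining kinesins (27.3%), against 19.2% of all 32851 promoters in the table. The CCAAT letters were present in 8 of 12 (66.7%), 5 of 14 (35.7%) and 4 of 11 (36.4%), against 37.4% of all promoters. Both were present in 7 of the 12 mitotic promoters, 0 of the 14 transport promoters and 3 of the 11 others (27.3%), and in 7.52% of all. These are letter matches, given with no test. The lists were drawn by role and the elements are known from cell-cycle genes, so the shares do not depend on sal003. Any part of the elements in the changes of RNA was not tested. Without a window were the riser Kif20a of the mitotic motors, Kif5a, Kif5b, Kif13b, Kif21b, Kifc2 and Kifc3 of the transport motors, and Kif19a. Some windows lie well inside the gene as GENCODE annotates it: the table start is 1505 bases inside Kif14, 3867 inside Kif2c, 11816 inside Kif17 and 4175 inside Kif27, and a second Kif1a start is 19471 bases inside. Without these 5 windows, a limit of 1000 bases chosen after seeing the data, the homology region letters were present in 8 of 10 mitotic, 0 of 12 transport and 2 of 10 other promoters, and both elements in 6, 0 and 2. The shares over all promoters were not recomputed under this limit. The promoters of 4 risers are printed because they show the range among them, in lower case with matches to either element in capitals: Kif11 (chr19:37376132-37376431, plus strand) and Kif22 (chr7:127042371-127042670, minus strand) with both elements, Kif15 (chr9:122950831-122951130, plus strand) with the homology region letters only, and Kif18a (chr2:109280488-109280787, plus strand), the largest riser, with no match in this window.
Kif11: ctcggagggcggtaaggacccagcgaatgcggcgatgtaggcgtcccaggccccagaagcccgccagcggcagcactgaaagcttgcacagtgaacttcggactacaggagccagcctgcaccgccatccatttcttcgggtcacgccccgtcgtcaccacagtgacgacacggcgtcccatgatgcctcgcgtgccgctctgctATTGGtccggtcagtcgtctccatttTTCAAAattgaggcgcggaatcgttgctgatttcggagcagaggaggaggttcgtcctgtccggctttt
Kif22: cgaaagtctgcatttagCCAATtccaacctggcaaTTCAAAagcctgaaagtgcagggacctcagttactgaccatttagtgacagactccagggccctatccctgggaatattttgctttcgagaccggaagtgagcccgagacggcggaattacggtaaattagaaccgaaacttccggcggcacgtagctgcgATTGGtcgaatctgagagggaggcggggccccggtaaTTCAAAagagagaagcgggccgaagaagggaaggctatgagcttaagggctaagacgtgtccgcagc
Kif15: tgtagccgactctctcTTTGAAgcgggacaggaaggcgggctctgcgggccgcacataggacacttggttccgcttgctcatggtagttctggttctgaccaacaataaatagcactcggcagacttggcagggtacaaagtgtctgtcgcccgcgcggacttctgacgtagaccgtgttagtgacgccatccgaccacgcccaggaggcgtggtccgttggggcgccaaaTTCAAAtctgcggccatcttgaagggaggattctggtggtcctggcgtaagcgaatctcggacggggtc
Kif18a: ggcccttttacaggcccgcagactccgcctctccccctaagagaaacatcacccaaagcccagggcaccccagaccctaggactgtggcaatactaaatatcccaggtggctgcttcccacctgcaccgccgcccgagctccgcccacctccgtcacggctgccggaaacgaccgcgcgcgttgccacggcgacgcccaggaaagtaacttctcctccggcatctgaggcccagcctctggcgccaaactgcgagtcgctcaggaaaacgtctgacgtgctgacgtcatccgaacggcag
In Kif11, Kif15 and Kif22 a homology region match (TTCAAA, read on the gene's strand) begins at position -19, -19 and -17 from the start, and in Kif11 and Kif22 a CCAAT match (ATTGG) begins at -45 and -54. Kif2b, at 0 in all libraries, was the other mitotic motor with no homology region match, and Kifc1, which did not pass the test, had 1.

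The transport motors moved apart from this pattern. Of the 18, all tested, 2 rose and 4 fell, while 12 missed the threshold, with a median log2 fold change of -0.18 (-0.00 over all tested genes). The shares called, 2 and 4 of 18, stand against 10.6% higher and 12.2% lower among all tested genes, so their number by itself is near the background for the higher calls. Without DMSO replicate 2 there were 3 higher and 5 lower. The higher count was 1 without DMSO replicate 3 or 4 or sal003 replicate 3 or 4, and 0 without sal003 replicate 1 or 2.

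Kif1a, the fast motor of synaptic vesicle precursors in neurons, fell furthest of all kinesins. It had 17.9, 16.5, 20.9 and 17.1 CPM in the 4 sal003 libraries, against 156, 129.6, 146 and 134 CPM in the 4 DMSO libraries (ENSMUSG00000014602, chromosome 1, 93015464 to 93101951, minus strand). The highest sal003 library was far below the lowest DMSO library, and the log2 fold change was -2.96 ± 0.12 (SE; adjusted p = 2.70e-10, edgeR), an estimated 7.80-fold lower level in sal003. The estimate stayed between -3.03 and -2.90 in the 8 fits without 1 library. Per kilobase, Kif1a ranked 13th of the 18 transport motors in sal003 and 5th in DMSO, at 1.94 CPM per kilobase in sal003 and 15.1 CPM per kilobase in DMSO. Its outermost promoter in the RefSeq table (chr1:93101825-93102124, minus strand) is printed for comparison with those of the mitotic motors and holds neither element.
Kif1a: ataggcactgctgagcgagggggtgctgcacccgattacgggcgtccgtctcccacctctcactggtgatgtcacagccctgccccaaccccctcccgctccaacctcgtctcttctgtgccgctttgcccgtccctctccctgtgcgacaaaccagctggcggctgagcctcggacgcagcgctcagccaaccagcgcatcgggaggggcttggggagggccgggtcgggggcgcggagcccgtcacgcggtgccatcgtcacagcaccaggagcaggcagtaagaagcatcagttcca
The second start in the table, 19471 bases inside the gene, has the homology region letters once, at position -44, and is the 1 match among transport motors.

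Kif1a is best known from neurons, and the summed level of 10 neuronal markers was lower in sal003 too; its part in the fall of Kif1a was not tested. The sum ranged from 15.2 to 20.5 CPM in sal003 and from 36.2 to 53.9 CPM in DMSO, and 5 of the 10 had no counts in any library. The 2 that could be tested, Tubb3 and Stmn2, were lower in sal003. Stmn2 had 0.380 ± 0.586 CPM in sal003 and 9.04 ± 1.57 CPM in DMSO (SD, n = 4), and Tubb3 had 18.2 ± 2.601 CPM in sal003 and 32.1 ± 7.03 CPM in DMSO. Kif1a alone had more CPM in each DMSO library than the whole marker list. In sal003 the ranges overlapped, at 16.5 to 20.9 CPM for Kif1a and 15.2 to 20.5 CPM for the list. Per kilobase of exon, Tubb3 was above Kif1a in both groups. Tubb3 had 9.76 CPM per kilobase in sal003 and 17.2 in DMSO, and Kif1a had 1.94 and 15.1. The neuron-enriched conventional kinesins were scarce in both conditions: Kif5a averaged 1.495 ± 0.993 CPM in sal003 and 1.83 ± 0.789 CPM in DMSO, and Kif5c averaged 5.01 ± 3.13 CPM in sal003 and 7.97 ± 3.0 CPM in DMSO (SD, n = 4). Neither passed the test (adjusted p = 0.868 and 0.312).

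The nearest relatives of Kif1a had estimates of smaller size. Kif1b, a motor of mitochondria and synaptic vesicle precursors, had 313, 309, 316 and 295 CPM in the 4 sal003 libraries, against 441, 394, 471 and 439 CPM in the 4 DMSO libraries (ENSMUSG00000063077, chromosome 4, 149176319 to 149307693, minus strand). It was lower in every sal003 library, by a log2 fold change of -0.50 ± 0.08 (SE; adjusted p = 0.000220, edgeR). Kif1c, which carries integrins and dense-core vesicles, had 167, 169, 179.8 and 176 CPM in the 4 sal003 libraries, against 194, 202, 195 and 179 CPM in the 4 DMSO libraries. Its groups overlapped, and the estimate of -0.15 ± 0.08 did not pass (adjusted p = 0.225). The fold for the 3 relatives thus ran from 7.80-fold lower for Kif1a to 1.42-fold lower for Kif1b, with Kif1c not past the threshold; differences between the genes' changes were not tested.

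Kif5b, the ubiquitous heavy chain of conventional kinesin, was the most abundant kinesin on either scale, at 99.7 CPM per kilobase in sal003 and 109 CPM per kilobase in DMSO. It had 785, 791, 800.2 and 807 CPM in the 4 sal003 libraries, against 767, 667, 974 and 1070.2 CPM in the 4 DMSO libraries. The sal003 libraries lay inside the DMSO range, and the log2 fold change of -0.13 ± 0.12 did not pass (edgeR adjusted p = 0.537). Its spread differed between the groups, with an SD of 9.92 CPM in sal003 and 185 CPM in DMSO. Kif5b made up 47.5% to 48.1% of the summed CPM of transport motors in sal003 and 38.5% to 48.6% in DMSO.

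Heterotrimeric kinesin-2, built from Kif3a with Kif3b or Kif3c and the accessory subunit Kifap3, moves intraflagellar and membrane cargo. Its subunit Kif3c had 17.2, 21.2, 21.4 and 22.4 CPM in the 4 sal003 libraries, against 36.2, 44.7, 38.1 and 32.1 CPM in the 4 DMSO libraries (ENSMUSG00000020668, chromosome 12, 3365132 to 3406494, plus strand). It was lower in all sal003 libraries, with a log2 fold change of -0.88 ± 0.16 (SE; adjusted p = 0.000702, edgeR). Kif3b, the alternative partner of Kif3a, had 39.98, 30.2, 40.8 and 42.8 CPM in the 4 sal003 libraries, against 35.2, 28.6, 41.3 and 42.2 CPM in the 4 DMSO libraries, overlapping groups and an estimate of 0.06 ± 0.16 (SE; adjusted p = 0.861, edgeR). Kif3a had 30.6, 34.3, 30.1 and 25.7 CPM in the 4 sal003 libraries, against 40.7, 20.05, 38.9 and 41.0 CPM in the 4 DMSO libraries. DMSO replicate 2 was by far its lowest DMSO library: the log2 fold change of -0.22 ± 0.20 did not pass (adjusted p = 0.530), but without that library it was -0.40 (adjusted p = 0.0379). Kifap3 averaged 67.0 ± 5.72 CPM in sal003 and 77.2 ± 10.1 CPM in DMSO (SD, n = 4; adjusted p = 0.271).

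The kinesin-3 pair Kif13a and Kif13b, both carriers of membrane cargo, had estimates of opposite sign, and both calls depended on single libraries. Kif13a had 26.8, 27.1, 25.7 and 31.3 CPM in the 4 sal003 libraries, against 21.6, 17.9, 19.6 and 17.6 CPM in the 4 DMSO libraries. The groups did not overlap, and the log2 fold change was 0.53 ± 0.16 (SE; adjusted p = 0.0243, edgeR). The call was lost without DMSO replicate 4 (adjusted p = 0.0548) and without sal003 replicate 1 (0.0522), 2 (0.0575) or 4 (0.0830). Kif13b had 17.9, 22.6, 23.4 and 21.8 CPM in the 4 sal003 libraries, against 35.2, 34.6, 28.4 and 26.3 CPM in the 4 DMSO libraries. It was lower in every sal003 library, at -0.54 ± 0.17 (SE; adjusted p = 0.0275, edgeR), and the call was lost without DMSO replicate 1 (adjusted p = 0.0909) and without sal003 replicate 1 (0.102), 2 (0.0530) or 4 (0.0603).

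Kif21a, a motor that slows microtubule growth at the cell cortex, had 46.3, 54.1, 49.97 and 35.4 CPM in the 4 sal003 libraries, against 28.6, 15.5, 31.7 and 37.8 CPM in the 4 DMSO libraries. DMSO replicate 4 lay above sal003 replicate 4. The log2 fold change was 0.71 ± 0.23 (SE; adjusted p = 0.0353, edgeR), and the call was lost without DMSO replicate 1 (adjusted p = 0.0809) or 3 (0.0558) and without sal003 replicate 1 (0.0783), 2 (0.109) or 3 (0.0914). The other members did not pass. Kif16b, a motor of early endosomes, had an estimate of 0.30 ± 0.17 (SE; adjusted p = 0.256, edgeR), and Kif21b, the relative of Kif21a, of 0.05 ± 0.19 (SE; adjusted p = 0.900, edgeR). Kif17, a dendritic and ciliary motor, had 13.5, 7.83, 9.88 and 5.71 CPM in the 4 sal003 libraries, against 2.75, 9.70, 5.52 and 5.29 CPM in the 4 DMSO libraries, and its estimate of 0.67 ± 0.38 (adjusted p = 0.264) passed without DMSO replicate 2 (1.04, adjusted p = 0.0268). Of the minus-end directed pair, Kifc3 had an estimate of 0.42 ± 0.20 (adjusted p = 0.167), which crossed the threshold without DMSO replicate 1 (0.63, adjusted p = 0.0369), while Kifc2 did not exceed 5.87 CPM in any library.

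**Figure D3:**
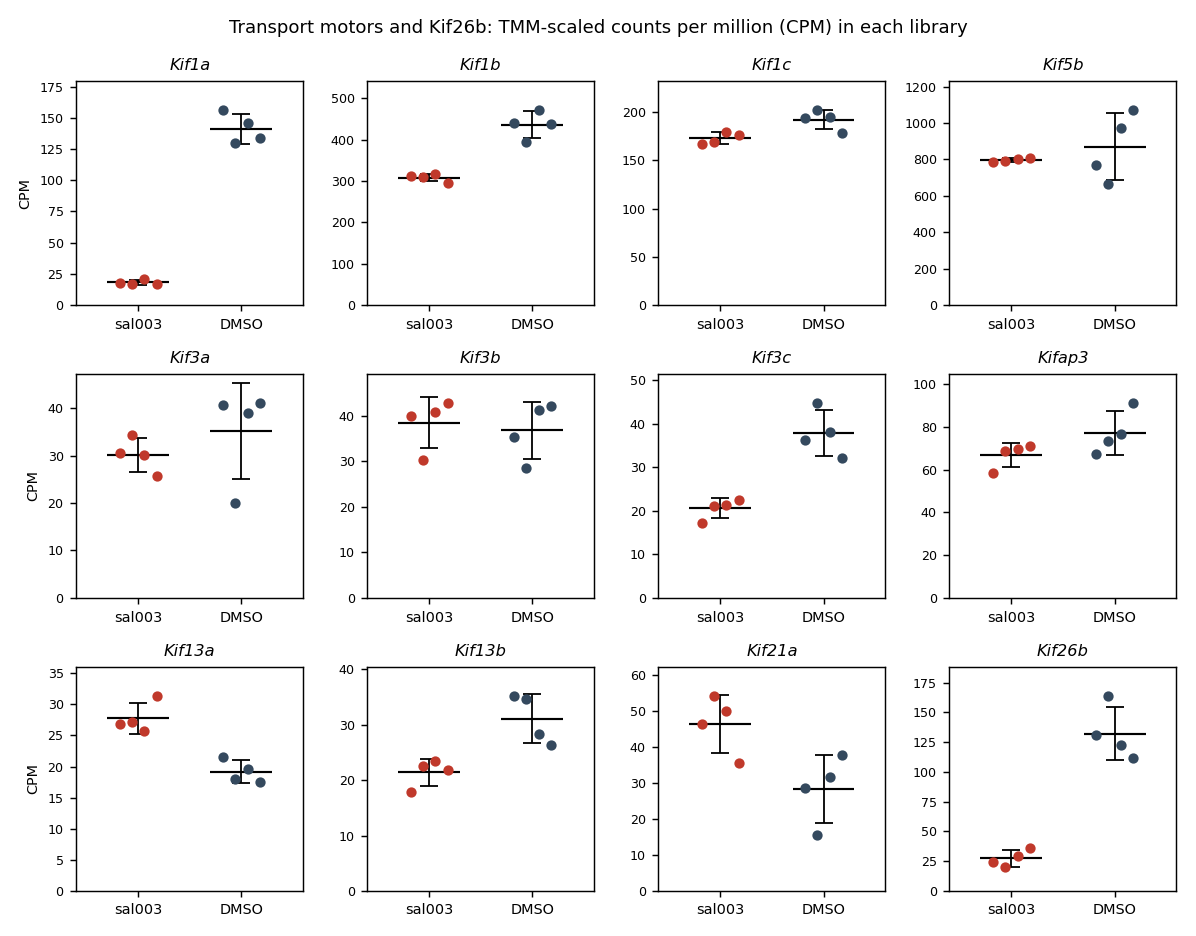
Level in CPM (vertical axis, own scale per gene) of 11 transport motors and of Kif26b in the 4 sal003 and the 4 DMSO libraries, replicates 1 to 4 from left to right, with mean and SD as bars. Kif1a, Kif1b, Kif3c, Kif13b and Kif26b lie lower in every sal003 library, and Kif13a lies higher.

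Seen as sums per library, the balance between the kinds of motor differed between the conditions. The 13 mitotic motors summed to 1342, 1374, 1372 and 1342 CPM in the 4 sal003 libraries, against 663, 530.5, 665 and 761 CPM in the 4 DMSO libraries, a ratio of means of 2.07. The 18 transport motors summed to 1652, 1652, 1679.9 and 1679.8 CPM in sal003, against 1929, 1732, 2171 and 2202 CPM in DMSO, a ratio of 0.829. The groups of libraries did not overlap in either sum. For the transport sum this rested on Kif1a, which made up 129.6 of the 1732 CPM in DMSO replicate 2. With Kif1a left out, that library lies below every sal003 library. Of the 18 transport motors, 12 missed the threshold. On the length-scaled values, mitotic motors took 47.2% to 48.1% of all kinesin signal in sal003 and 27.4% to 31.1% in DMSO, and transport motors took 42.2% to 43.9% in sal003 and 56.9% to 60.5% in DMSO. No p-value is attached to these sums, since they are scores over chosen members.

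**Figure D4:**
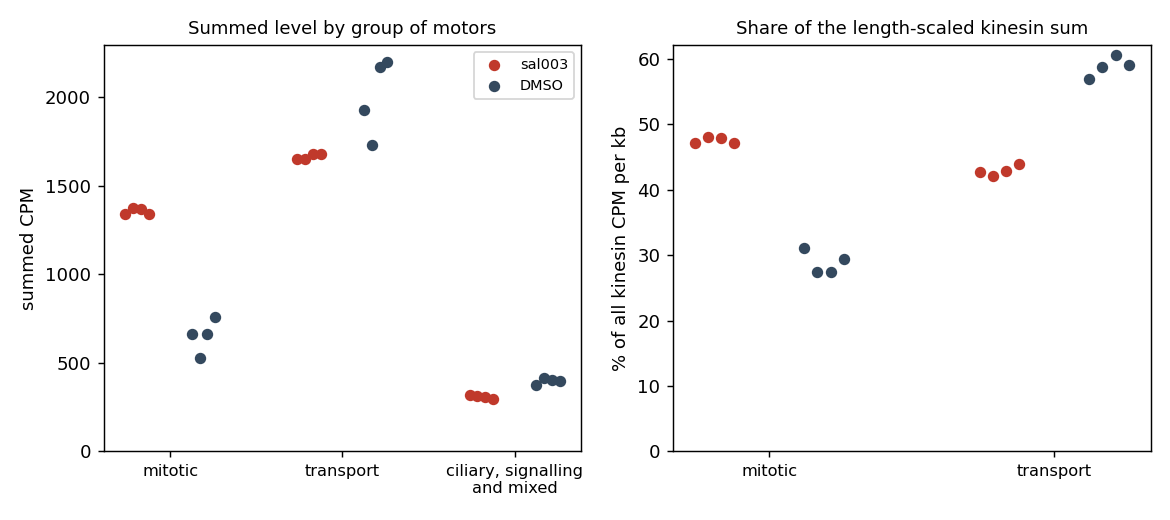
Left, summed CPM of mitotic, transport and remaining kinesins in each library; right, the share of mitotic and transport motors in the sum of kinesin CPM per kilobase of exon, in percent. Each point is 1 library, sal003 in red and DMSO in dark blue: the mitotic sum lies between 1342 and 1374 CPM in sal003 and between 530.5 and 761 CPM in DMSO.

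Of the 10 kinesins with ciliary, signalling or mixed roles, 8 could be tested: 1 rose, 2 fell and 5 did not pass (median log2 fold change -0.47), against 10.6% higher and 12.2% lower among all tested genes. Kif26b, an atypical kinesin known from Wnt5a-Ror signalling and from kidney development, had 24.3, 19.8, 29.4 and 36.1 CPM in the 4 sal003 libraries, against 131, 164, 123 and 111 CPM in the 4 DMSO libraries (ENSMUSG00000026494, chromosome 1, 178529125 to 178939200, plus strand). The groups were far apart, and the log2 fold change was -2.27 ± 0.18 (SE; adjusted p = 2.39e-07, edgeR), an estimated 4.83-fold lower level in sal003; an antisense gene overlaps its exons. Its promoter (chr1:178528875-178529174, plus strand) is shown because it holds both elements although the gene fell, here again with matches in capitals.
Kif26b: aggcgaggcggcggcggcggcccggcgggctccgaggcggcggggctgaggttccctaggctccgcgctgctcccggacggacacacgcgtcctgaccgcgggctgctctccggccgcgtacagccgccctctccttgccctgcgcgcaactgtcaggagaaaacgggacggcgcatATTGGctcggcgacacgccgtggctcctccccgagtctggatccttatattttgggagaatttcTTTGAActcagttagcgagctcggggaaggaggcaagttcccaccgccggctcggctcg
Its homology region match (TTTGAA) begins at position -9 and its CCAAT match (ATTGG) at -73. The promoter of Kif24, the other member of this group that fell, also holds both elements. It has a homology region match (TTCGAA) at -26 and 4 CCAAT matches.

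Kif24, which holds centriole caps in place and restrains cilium formation, had 66.1, 62.8, 62.2 and 61.8 CPM in the 4 sal003 libraries, against 76.5, 96.9, 93.2 and 71.8 CPM in the 4 DMSO libraries. It was lower in all sal003 libraries, at -0.42 ± 0.12 (SE; adjusted p = 0.0160, edgeR), and the call was lost without DMSO replicate 3 (adjusted p = 0.0642) or sal003 replicate 3 (0.0507). Kif2a, a depolymerase of spindle poles and of neurites that was kept out of the mitotic list for this double role, had 188, 201, 189.9 and 171 CPM in the 4 sal003 libraries, against 127, 123, 149 and 177 CPM in the 4 DMSO libraries. DMSO replicate 4 lay within the sal003 range, and the log2 fold change was 0.38 ± 0.11 (SE; adjusted p = 0.0240, edgeR). Its call was lost without DMSO replicate 1 (adjusted p = 0.0743) and without sal003 replicate 1 (0.0614), 2 (0.0823) or 3 (0.0632). Kif7, a regulator of Hedgehog signalling at the cilium tip, had an estimate of -0.18 ± 0.18 (SE; adjusted p = 0.588, edgeR). Kif9, Kif19a, Kif26a and Kif27 did not exceed 3.68 CPM in any library and did not pass the test, with SEs of the log2 fold change of 0.92 or more.

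The proteins that kinesins work with were counted from lists. Of 23 spindle partners of the mitotic motors, 17 rose and 1 fell (median log2 fold change 0.86), where 10.6% of all tested genes were higher and 12.2% lower. Cenpe, a kinetochore kinesin named outside the Kif series, had 249, 253, 245 and 236 CPM in the 4 sal003 libraries, against 85.7, 91.2, 117 and 132 CPM in the 4 DMSO libraries, at 1.21 ± 0.12 (SE; adjusted p = 2.73e-06, edgeR). Tpx2, which targets Aurora A and Kif15 to the spindle, had an estimate of 0.82 ± 0.08 (SE; adjusted p = 1.92e-06, edgeR), and Cdca8, a subunit of the chromosomal passenger complex, of 1.19 ± 0.12 (SE; adjusted p = 3.004e-06, edgeR). The member that fell was Mapre3 (EB3), a microtubule plus-end protein known to be needed for myoblast elongation and fusion, which had 21.9, 24.6, 21.4 and 19.4 CPM in the 4 sal003 libraries, against 63.1, 61.6, 52.1 and 55.3 CPM in the 4 DMSO libraries. All sal003 libraries were lower, with a log2 fold change of -1.41 ± 0.14 (SE; adjusted p = 1.499e-06, edgeR).

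Of 24 light chains, adaptors and cargo linkers tested, 2 rose, 6 fell and 16 did not pass (median log2 fold change -0.31), set against all-gene shares of 10.6% higher and 12.2% lower, so the count of rises is near the background. Klc1, a light chain of conventional kinesin, had 233, 222, 246 and 215 CPM in the 4 sal003 libraries, against 353, 323, 316 and 318 CPM in the 4 DMSO libraries, lower in each sal003 library, at -0.52 ± 0.08 (SE; adjusted p = 0.000210, edgeR). Klc2, the second main light chain, had 34.6 ± 4.36 CPM in sal003 and 50.7 ± 6.70 CPM in DMSO (SD, n = 4), at -0.55 ± 0.14 (SE; adjusted p = 0.0103, edgeR). Map7d1, a microtubule protein of the family that recruits conventional kinesin and places myonuclei, fell by 0.89 ± 0.10 (SE; adjusted p = 1.16e-05, edgeR) on the log2 scale. The 2 that rose were the scaffold Ppfia1 (liprin-α1), at 0.56 ± 0.14 (SE; adjusted p = 0.00949, edgeR), and the lipid phosphatase Mtmr2, at 0.43 ± 0.12 (SE; adjusted p = 0.0195, edgeR); without DMSO replicate 3, sal003 replicate 1 or sal003 replicate 2 only 1 member of the list was higher.

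Cytoplasmic dynein moves toward microtubule minus ends, opposite to most kinesins. Of 27 tested subunits, dynactin components and adaptors, 0 rose and 7 fell (median log2 fold change -0.13), beside 10.6% higher and 12.2% lower over all tested genes. At an unadjusted p below 0.05, edgeR put 1 of them higher; at the adjusted threshold, DESeq2 put 0 and limma-voom 1 higher. Of the list, 10 fell without DMSO replicate 2, while 1 rose without DMSO replicate 4. The intermediate chain Dync1i1, best known from neurons, had 2.55, 4.96, 4.84 and 5.35 CPM in the 4 sal003 libraries, against 25.6, 7.95, 20.8 and 23.2 CPM in the 4 DMSO libraries, at -2.13 ± 0.35 (SE; adjusted p = 0.000308, edgeR). Its sal003 libraries were all lower, although DMSO replicate 2 came near them. The light intermediate chains Dync1li1 and Dync1li2 had estimates of -0.61 ± 0.08 (SE; adjusted p = 4.03e-05, edgeR) and -0.45 ± 0.10 (SE; adjusted p = 0.00413, edgeR), and the adaptor Bicd2 had -0.40 ± 0.09 (SE; adjusted p = 0.00449, edgeR).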

How the data were processed

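The authors deposited 1 table of raw exon counts per gene for 8 libraries; the build was mm10, with trimming by Trimmomatic (0.32), alignment by STAR (2.3.0e) and counting by featureCounts (1.4.4) named in the submitters' processing notes; per the labels' protocols the libraries were stranded and depleted of ribosomal and mitochondrial RNA. For strand and for multiple alignments, no setting was given in the sources used here. The sal003 dose is 10 µM in the design text and 10 mM in 1 protocol; 10 µM is used. Low counts (1 to 20) were mostly even, 75.6% to 83.4% per library, so halved counts were one alternative. No 2 libraries of a group agreed within counting noise (chi-square at least 24.3 per degree of freedom). Without molecular identifiers, depth speaks only to counting error.

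In R 4.3.3, edgeR 4.0.16 was run with filterByExpr by condition, TMM scaling and glmQLFit (robust) on a model of condition alone; two-sided p-values were adjusted by Benjamini-Hochberg over all 15816 tested genes at 0.05. Dividing the log2 fold change by the root of its F statistic gave the SE. The fit was tested on simulated data. Exon lengths and coordinates come from GENCODE M21 of mm10, in which all 41 kinesin rows were found. Members, role lists and partner lists were chosen with earlier results of these data known. Named in full are kinesins past the threshold plus Kif1a, Kif5b, Kif11 and Kifc1, and of each partner list the 4 past the threshold with the lowest p and those against its majority. Symbols without a row were 3 in the adaptor list and 1 in the dynein list. Alternatives were DESeq2 size factors, omission of the filter, at least 1 CPM in 4 libraries, DESeq2 1.42.0, limma-voom (limma 3.58.1) with quality weights, halved counts, a replicate block and leaving out each library.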

Additional observations from a re-analysis of the deposited data

Results flagged for a closer look

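Over both conditions, 76 sets of 4 kinesin values (1 gene in 1 condition) were examined for a library whose gap to its nearest neighbour took up most of the range (above 0.829 of it, which chance alone gives in about 5% of sets), and 6 had one. In sal003, Kif5c was 9.68 CPM in replicate 4 and 3.18 to 3.84 CPM in the other 3 libraries. In sal003 replicate 1, Kif22 was 88.2 CPM, against 95.1 to 96.4 CPM in the other 3, and Kifap3 was 58.5 CPM, against 68.9 to 71.0 CPM. In DMSO replicate 2, the library that stands apart in the whole data, Kif26a was 3.68 CPM, where the other 3 had 0.999 to 1.29 CPM, and Kif3a was 20.05 CPM, where the other 3 had 38.9 to 41.0 CPM. In DMSO replicate 3, Kif21b was 29.4 CPM, against 17.96 to 19.0 CPM in the other 3.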

How the results depend on the processing

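The counts for mitotic motors (11 higher, 0 lower) were the same under the 7 other settings and the 8 fits without 1 library, as were those for spindle partners (17 higher, 1 lower), except for 16 higher with no filter. For all genes, leaving out 1 library gave 1270.0 to 2219 higher and 1612 to 2252 lower. The smaller counts depended on single libraries: leaving out 1 gave 0 to 3 transport motors higher and 3 to 5 lower, 0 to 1 of the ciliary, signalling and mixed-role kinesins higher and 1 to 2 lower, 1 to 2 adaptors higher and 5 to 6 lower, and 0 to 1 dynein genes higher and 5 to 10 lower. limma-voom called 1 dynein gene higher. With the replicate block, 0 transport motors were higher and 3 lower, since Kif13a (adjusted p = 0.0511), Kif13b (0.0531) and Kif21a (0.0689) were lost; same-numbered libraries shared only a number (correlations of their deviations -0.00531 to 0.0354, and 1 of 4 sal003 libraries correlated best with its own number). It changed no other kinesin call. limma-voom called Kifc3 (adjusted p = 0.0408). Signs of estimates near 0 that did not pass turned for Kif3b (-0.057) and Kif21b (-0.017) with limma-voom, for Kif9 with the block (0.43), and without 1 library for Kif9 (-0.50 to 0.34), Kif5a (-0.724 to 0.00078), Kif5b (-0.226 to 0.0022), Kif3b (-0.032 to 0.161) and Kif21b (-0.0091 to 0.259). The cause was not tested. On the log2 scale, the ratio of summed levels was 0.96 to 1.13 for mitotic and -0.33 to -0.22 for transport motors without 1 library. Without promoter windows far inside annotated genes, an alternative chosen after seeing the data, the share of transport promoters with homology region letters was 0%. Depth limits Kif9, Kif19a, Kif27 and Kifc2, which fall below the filter level in at least 1 library.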
